A study of Mus musculus with 4 samples.

Results

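The genes described here are the liver X receptors (Nr1h2 and Nr1h3) and their partner retinoid X receptor alpha (Rxra). They also include the peroxisome proliferator-activated receptors gamma and delta (Pparg and Ppard). The remaining 5 are genes of lipid handling that these receptors control (Abca1, Abcg1, Mylip, Srebf1 and Lpcat3). The regions were all peaks of histone H3 acetylated at lysine 9 (H3K9ac) that overlapped these 10 genes, taken with 10 kb on either side, by at least 1 bp. They numbered 25 of the 16419 peaks in the library without romidepsin and 147 of the 103336 peaks in the library with it. H3K9ac was mapped by chromatin immunoprecipitation and sequencing in myeloid-derived suppressor cells (MDSC) grown from mouse bone marrow, a class of immature myeloid cells known for suppressing T cell responses. The series' design text calls the cells senescent after induction in vitro, with no senescence label on the single libraries, and the titles of both groups name CM, which is not spelled out there. The agent used to induce senescence, the strain, sex and age of the mice, and the dose and time of treatment are not given in the sources used here. The CM group is 1 immunoprecipitated library without romidepsin, and the romidepsin group is 1 immunoprecipitated library of cells in CM treated with romidepsin, an inhibitor of class I histone deacetylases.

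The liver X receptors are nuclear receptors that sense oxysterols. Together with a retinoid X receptor they bind response elements near genes that export cholesterol, and without ligand they hold corepressor complexes containing a histone deacetylase. The peroxisome proliferator-activated receptors sense fatty acids and also pair with a retinoid X receptor; in macrophages they act on lipid uptake, storage and oxidation and raise liver X receptor signalling. H3K9ac marks active start sites and is removed by histone deacetylases.

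With 1 library per condition there was no test between conditions, no value has a replicate check, and p-values were not computed. The number of reads behind each list is unknown, and more reads give more and wider peaks. In bulk chromatin, a change in which cells are present and a change of the mark within cells cannot be told apart. The fold given for each peak is the authors' enrichment as the peak list gives it. It is used to describe peaks within a list, apart from an alternative setting that applied the same cut to both lists. Myeloid identity was checked at start sites: of the myeloid markers with an annotated start, 6 of 6 had a peak within 1 kb in both lists, while 0 of 4 lymphocyte markers and 0 of 4 adipocyte and liver markers had such a peak in CM. With romidepsin 2 of 4 lymphocyte markers (Cd3d and Cd79a) and 2 of 4 adipocyte and liver markers (the adipocyte genes Adipoq and Plin1) had a peak. Over all protein-coding genes with a start the shares were 51.4% in CM and 63.1% with romidepsin. Within 10 kb of the gene, CM peaks lay at 10 of 10 myeloid markers, 2 of 5 lymphocyte markers (Cd3d and Cd79a) and 1 of 4 adipocyte and liver markers (Plin1). Of the 3 stromal and endothelial markers, none with an annotated start, 1 had a peak within 10 kb in CM and all 3 did with romidepsin. On this measure the shares over all protein-coding genes were 58.8% and 72.2%. The part of this broader distribution in the values below was not tested.

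Promoter sequences are shown first for 3 genes with a sequence match to a response element under, or partly under, a measured peak. They are the 250 bases before the start site, from RefSeq (GRCm38.p6), written 5′ to 3′ in the direction of the gene. Start sites were found in that table for 9 of the 10 genes, with 15 starts in all; Abcg1 was not matched. Capitals in the 3 sequences below mark matches to GGTTACTNNCGGTCA or, where the last letters differ, to its first 12 letters, GGTTACTNNCGG, the form of liver X receptor element known from Abca1. The matches lie on the strand opposite to the gene, so that they read as the reverse complement. Abca1 covers chr4:53159896-53160145 (minus strand), Srebf1 covers chr11:60210472-60210721 (minus strand), upstream of the most downstream of its 3 starts, and Fasn, the fatty acid synthase gene and another target of these receptors, covers chr11:120824548-120824797 (minus strand).
Abca1: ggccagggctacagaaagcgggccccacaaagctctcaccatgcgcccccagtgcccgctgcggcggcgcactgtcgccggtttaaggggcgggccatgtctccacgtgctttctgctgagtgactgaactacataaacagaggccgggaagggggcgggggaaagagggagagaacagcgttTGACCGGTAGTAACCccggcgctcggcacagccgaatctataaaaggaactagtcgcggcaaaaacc
Srebf1: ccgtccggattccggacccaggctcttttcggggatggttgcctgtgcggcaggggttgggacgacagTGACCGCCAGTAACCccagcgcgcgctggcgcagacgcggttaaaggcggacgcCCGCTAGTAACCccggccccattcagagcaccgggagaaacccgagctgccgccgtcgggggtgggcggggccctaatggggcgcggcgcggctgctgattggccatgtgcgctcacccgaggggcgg
Fasn: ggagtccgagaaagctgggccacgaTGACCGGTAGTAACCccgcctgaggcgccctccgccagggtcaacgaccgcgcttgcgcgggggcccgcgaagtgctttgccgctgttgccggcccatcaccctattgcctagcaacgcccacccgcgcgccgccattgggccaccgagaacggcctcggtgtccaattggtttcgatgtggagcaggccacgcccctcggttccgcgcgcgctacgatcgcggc

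The 15-letter form was present in 3 of 32851 promoters of 300 bases, those of Abca1, Srebf1 and Fasn (0.00913%, both strands searched), and the 12-letter form in 9 (0.0274%). These letters were taken from the Abca1 promoter itself, with its 2 middle bases left open, after the Abca1 and Srebf1 sequences had been read, so the matches in these 2 genes are a description. With the start site counted as position 0, the 15-letter match lay at positions -67 to -53 in Abca1 and -182 to -168 in Srebf1, and Srebf1 held another 12-letter match at -128 to -117. In the CM list, peaks covered all 12 bases of the shorter form at both Srebf1 sites and at Fasn, and 7 of 12 bases at Abca1, where the edge of the peak ran through the element. With romidepsin all 12 bases were covered at each of these sites. The canonical direct repeats, 2 copies of AGGTCA in the same direction, were also searched on both strands. The repeat with any 4 bases between the copies, known for binding liver X receptors, was found in 0 of the 15 promoters (0.0152% of all promoters). The repeat with any 1 base between them, known for binding peroxisome proliferator-activated receptors, was found in 0 of 15 (0.0396%). No match says only that these letters are not in these windows.

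The start of Pparg and the upstream start of Rxra are shown because their H3K9ac differed in form from the other starts. The Pparg sequence covers chr6:115360894-115361143 (plus strand), with the single repeat unit AGGTCA in capitals. The Rxra sequence covers chr2:27676951-27677200 (plus strand), with GC boxes (GGGCGG, either strand) in capitals.
Pparg: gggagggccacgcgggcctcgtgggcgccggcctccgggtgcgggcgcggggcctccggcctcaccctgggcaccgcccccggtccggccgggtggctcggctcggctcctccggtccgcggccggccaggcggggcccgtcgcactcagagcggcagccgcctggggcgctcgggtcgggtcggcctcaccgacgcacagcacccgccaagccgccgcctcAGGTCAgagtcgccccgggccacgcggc
Rxra: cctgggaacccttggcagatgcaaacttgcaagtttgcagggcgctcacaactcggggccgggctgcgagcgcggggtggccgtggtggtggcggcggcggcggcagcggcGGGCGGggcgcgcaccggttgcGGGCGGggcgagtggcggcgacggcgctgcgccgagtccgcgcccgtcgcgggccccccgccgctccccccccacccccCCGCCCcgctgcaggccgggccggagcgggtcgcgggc

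The unit AGGTCA occurred in 3 of the 15 promoters (16.3% of all promoters), namely 2 starts of Pparg and the downstream start of Rxra, and it is part of both longer repeats above. The GC box, a binding site of SP factors, occurred in 9 of 15 (35.7% of all promoters). With a GC content of 83.0% and 55 CpG in 300 bases, the upstream Rxra start ranked at percentile 99.7 and 99.8 of all promoters. The first Pparg start had 80.3% and 44 CpG.

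All 10 gene windows held a peak in both lists, as did 58.8% of protein-coding genes in CM and 72.2% with romidepsin. All 9 genes with an annotated start had a peak within 1 kb of a start in CM, and all 9 had one with romidepsin. Over all 17491 protein-coding genes with a start, the shares were 51.4% in CM and 63.1% with romidepsin, while 11.8% had a start peak with romidepsin only and 36.9% in neither list. The lists differed in the number of peaks over the windows, 25 in CM and 147 with romidepsin, and in the sequence under them. The 10 gene windows, 786.7 kb in all, held 30.1 kb under peaks in CM and 369.8 kb with romidepsin, a ratio of 12.3. The ratio was 7.52 with peaks of at least 3-fold enrichment only and 5.79 with the romidepsin list reduced to the size of the CM list. The cut at 3-fold acted on the romidepsin list alone, because the lowest fold of a CM peak in the set was 3.33. All 10 genes had at least 3-fold more covered sequence with romidepsin, a share that was 87.3% over all 12876 genes with any CM coverage, so the count follows the background. The median ratio was 14.0 over the 10 genes and 5.56 over these 12876 genes. The genes of the set were long, with a median of 51.0 kb against 17.2 kb over all protein-coding genes. The part of gene length in the ratio was not tested. The share of the window under a peak was 4.78% in CM at the median gene of the set and 55.5% with romidepsin, beside 1.46% and 12.0% over all protein-coding genes. With romidepsin, the median share was 57.3% over genes of oxysterol supply and cholesterol handling and 77.1% over the myeloid markers. It was lower than in the set for every other gene list, at most 38.7%, over the other liver X receptor targets. High romidepsin coverage was thus not particular to this set. In 6 of the 10 windows at least 50% lay under romidepsin peaks, against 17.3% of all genes, and in 7 of the 10 gene spans, against 22.0%. At a −log10 q of at least 5 in both lists, 4 of the 10 genes (Rxra, Pparg, Abca1 and Srebf1) had no CM peak left. In that setting 4 of 9 genes had a start peak in CM and 6 of 9 with romidepsin. At least 3-fold more covered sequence was left at 3 genes (Ppard, Abcg1 and Mylip). The shares over all genes were not computed in that setting, so these counts have no background beside them.

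**Figure D1:**
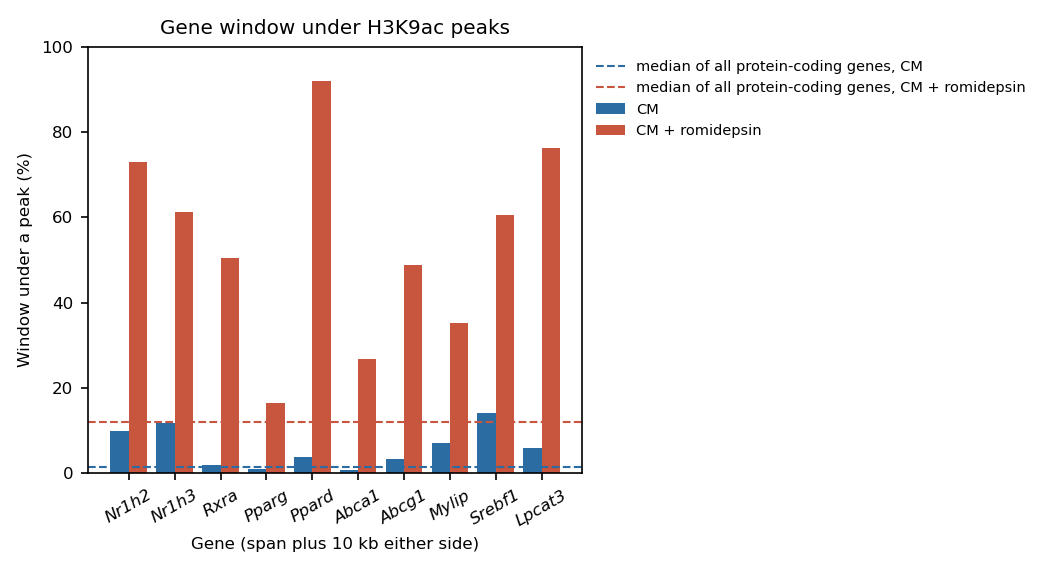
Share of each gene window (gene span plus 10 kb either side, in %) under H3K9ac peaks in CM (blue) and in CM with romidepsin (red), 1 library each. Dashed lines give the median of all protein-coding genes, 1.46% in CM and 12.0% with romidepsin; Ppard is highest with romidepsin (92.0%) and Pparg lowest (16.4%).

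Every CM peak of the set overlapped a romidepsin peak, and 24 of 25 lay wholly inside it. The exception, at Rxra, began 1 bp before its partner. The same shares over the whole CM list are not given here, so these counts do not set the genes apart from others. The partner was 1.76 to 65.5 times as long as the CM peak, with a median of 7.60. A partner shared by several CM peaks was counted for each of them. The largest ratio came from a weak CM peak of 274 bp at Ppard (fold 3.33, −log10 q 1.21). A CM peak lay under 20 of the 147 romidepsin peaks. These 20 had a median length of 8021.5 bp, a median fold of 3.81 and a total of 155.0 kb. The other 127 (86.4%, beside 87.1% in the whole list) had a median length of 998 bp, a median fold of 2.59 and a total of 228.6 kb. In the whole romidepsin list the median lengths were 4865.5 bp with a CM peak and 806 bp without. The difference in length between these classes was thus not particular to the set. Among these 127 peaks 10 were at least 5 kb long, which was 7.87%, beside 2.84% of the 90024 such peaks in the whole list. The 10 long peaks lay at 4 genes, Ppard, Abca1, Abcg1 and Lpcat3. A long romidepsin peak without a CM peak was present at 9.10% of all genes and at 16.1% of genes of at least 40 kb, a length that 6 of the 10 genes reached, these 4 among them. The limits of 5 and 40 kb were chosen after the peaks had been seen.

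**Figure D2:**
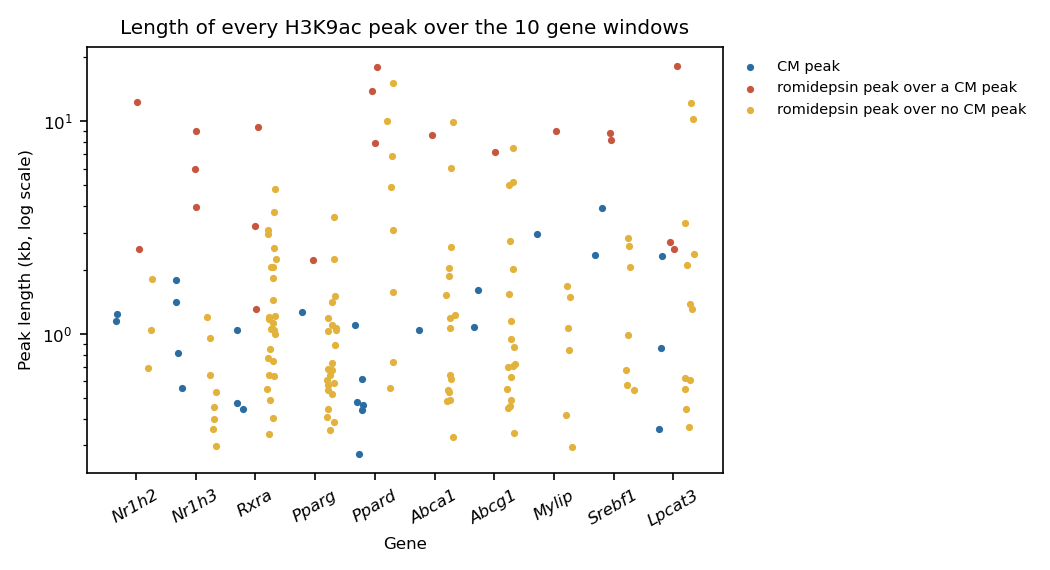
Length of every peak over the 10 gene windows (kb, log scale) in CM (blue, 25 peaks), in romidepsin peaks that overlap a CM peak (red, 20) and in romidepsin peaks that do not (yellow, 127). The red points lie mostly above the blue ones, and long yellow points stand at Ppard, Abca1, Abcg1 and Lpcat3.

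More of the genes were under a romidepsin peak than under a CM peak at 1 kb upstream and at 5 kb on either side of the start. These counts include peaks separate from the one at the start. At the first start of the 9 genes, 8 were under a peak in each list, all but Rxra (43.3% and 58.0% of all genes). At 1 kb upstream, 0 of 9 were under a CM peak and 8 of 9 under a romidepsin peak, against 10.7% and 43.6% of all genes. At 5 kb upstream the counts were 0 and 3, for Nr1h2, Nr1h3 and Ppard (1.93% and 20.4% of all genes). At Nr1h3 this was a separate peak of 9027 bp that also covered the start of Acp2, and the start peak ended 4132 bp upstream. At 5 kb downstream they were 0 and 5, for Abca1, Mylip, Ppard, Rxra and Srebf1 (2.00% and 26.6% of all genes). At Rxra and Srebf1 these were separate peaks of 1128 and 2585 bp that overlapped no CM peak.

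**Figure D3:**
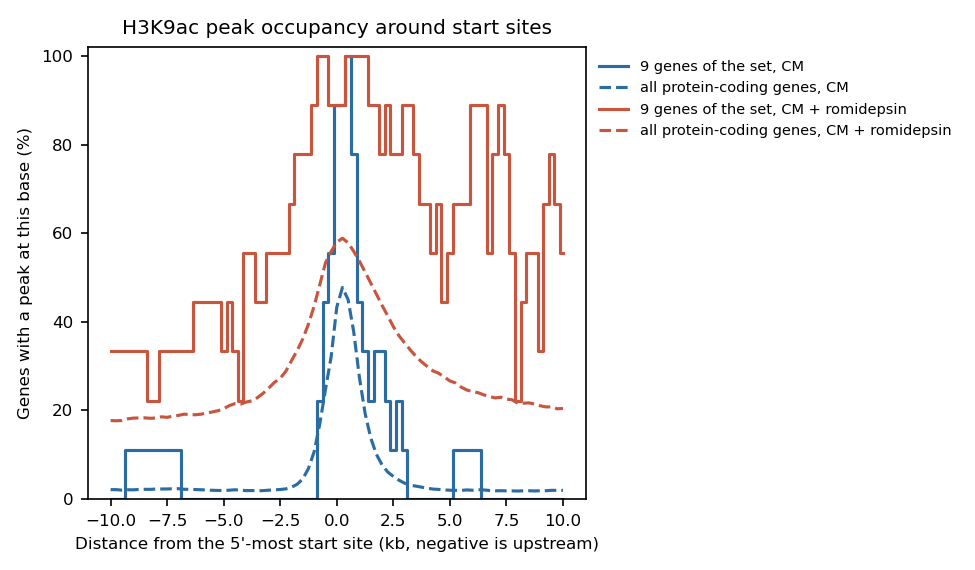
Percent of genes with a peak over the base at each distance (kb) from the first start site, for the 9 genes of the set (solid steps) and all 17491 protein-coding genes with a start (dashed), in CM (blue) and CM with romidepsin (red). The blue steps fall to 0 at 1 kb upstream, where the red steps stand at 8 of 9 genes; the blue steps beyond 5 kb come from peaks that touch Acp2, Def6 and Pold1.

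Among the sensors of oxysterols, Nr1h2, which encodes liver X receptor beta, had a compact CM peak and an extended romidepsin peak. The CM peak was chr7:44553248-44554484 (1237 bp, fold 5.99), from 519 bp upstream to 717 bp downstream of the start. With romidepsin, chr7:44549412-44561812 (12401 bp, fold 3.44) covered 100% of the gene and ran 7847 bp upstream, over no other annotated gene. The other CM peak in the window, chr7:44547623-44548772 (fold 4.51), lay over the neighbour Pold1, a DNA polymerase gene.

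Nr1h3, which encodes liver X receptor alpha, the isotype most linked to macrophages, had the lowest fold among the CM peaks that covered a start base. Its CM peak chr2:91194611-91195166 was 556 bp long with a fold of 4.12 and a −log10 q of 2.38, at percentile 28.4 of fold in the CM list. It covered both annotated starts. With romidepsin the start lay in chr2:91193300-91199248 (5949 bp, fold 3.30). A stronger CM peak, chr2:91202053-91203844 (fold 6.22), lay across the upstream end of the Nr1h3 span, with 777 bp inside it, and also covered the start of the neighbour Acp2; to which gene it belongs cannot be told apart. Another, chr2:91182065-91183477 (fold 5.51), lay outside the span and covered a start of Madd. With the romidepsin list reduced to the size of the CM list by −log10 q, Nr1h3 was the only 1 of the 9 genes without a start peak in it. The miss was narrow: its start peak had a −log10 q of 4.31, and the smallest value kept was 4.34.

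Rxra, which encodes the common partner of these receptors, had its upstream start in a gap between peaks in both lists. In CM the gap of 465 bp lay between chr2:27676534-27677008 (475 bp, fold 3.71) and chr2:27677474-27678514 (1041 bp, fold 5.24). With romidepsin it was 437 bp long, between peaks of 1309 bp (fold 3.76) and 3235 bp (fold 3.53). Counted from the start site, at position 27677201, the upstream CM peak ended at -193 and the downstream CM peak began at 273. Such a start, with a peak within 1 kb on each side and none on the start base, made up 1.90% of the starts of protein-coding genes with a peak within 1 kb in CM and 1.99% with romidepsin. A start base under no peak, with a peak within 1 kb on any side, was more common, at 14.0% in CM and 7.19% with romidepsin. The high GC content of this promoter is given above; its part in the gap was not tested. Per the labels' protocol, the chromatin was sheared to fragments that were on average longer than these gaps. The downstream Rxra start had no CM peak within 1 kb and 2 romidepsin peaks, the stronger with a fold of 2.65. Over its 86.9 kb Rxra carried 28 romidepsin peaks and 3 CM peaks, and 59.6% of the gene was under a romidepsin peak. The only CM peak away from the start, chr2:27714646-27715089 (444 bp, fold 3.72), lay 37.4 kb downstream inside a romidepsin peak of 9388 bp.

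Pparg and Ppard, the fatty acid sensors of the set, stood at the lower and upper end of the romidepsin coverage. Pparg, the regulator of adipocyte formation and of lipid uptake in macrophages, had 1 CM peak, chr6:115360722-115361988 (1267 bp, fold 4.46, −log10 q 2.97), at the first of its 3 starts. The romidepsin peak there, chr6:115360363-115362587, was 2225 bp long with a fold of 4.08, which made it the least extended of the set at 1.76 times the CM length. It also covered the next start, at position 115362349, which no CM peak covered. The third start, at position 115422066, was under a romidepsin peak of 1037 bp (fold 2.53, −log10 q 2.19) and had no CM peak within 1 kb. The gene is known to use alternative starts for its gamma isoforms; which isoform each position gives was not examined. The other romidepsin peaks of Pparg were short, with a longest of 3551 bp, and a stretch of 29.8 kb held none. In all 16.4% of the window was under romidepsin peaks and 0.847% under CM peaks.

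Ppard, which encodes the widely expressed delta receptor of fatty acid oxidation, was covered almost from end to end with romidepsin. In CM it had the strongest start peak of the set, chr17:28232650-28233756 (1107 bp, fold 6.97, −log10 q 8.05), at percentile 94.1 of fold in its list, and 4 weaker intragenic peaks of 274 to 480 bp with folds of 3.33 to 4.11. With romidepsin the start lay in chr17:28221667-28239619 (17953 bp, fold 3.79), which joined 4 CM peaks and reached 11.1 kb upstream over the neighbour Def6. It was followed by peaks of 13841, 7877, 15205 and 10050 bp, and 92.9% of the gene was covered. The longest stretch of the gene without a romidepsin peak was 1.00 kb. The 92.0% of the window under peaks ranked at percentile 98.9 of all protein-coding genes. The peak of 15205 bp, chr17:28263098-28278302 (fold 2.90), and that of 10050 bp, chr17:28278675-28288724 (fold 3.73), overlapped no CM peak; the former also covered the noncoding gene 1810013A23Rik.

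**Figure D4:**
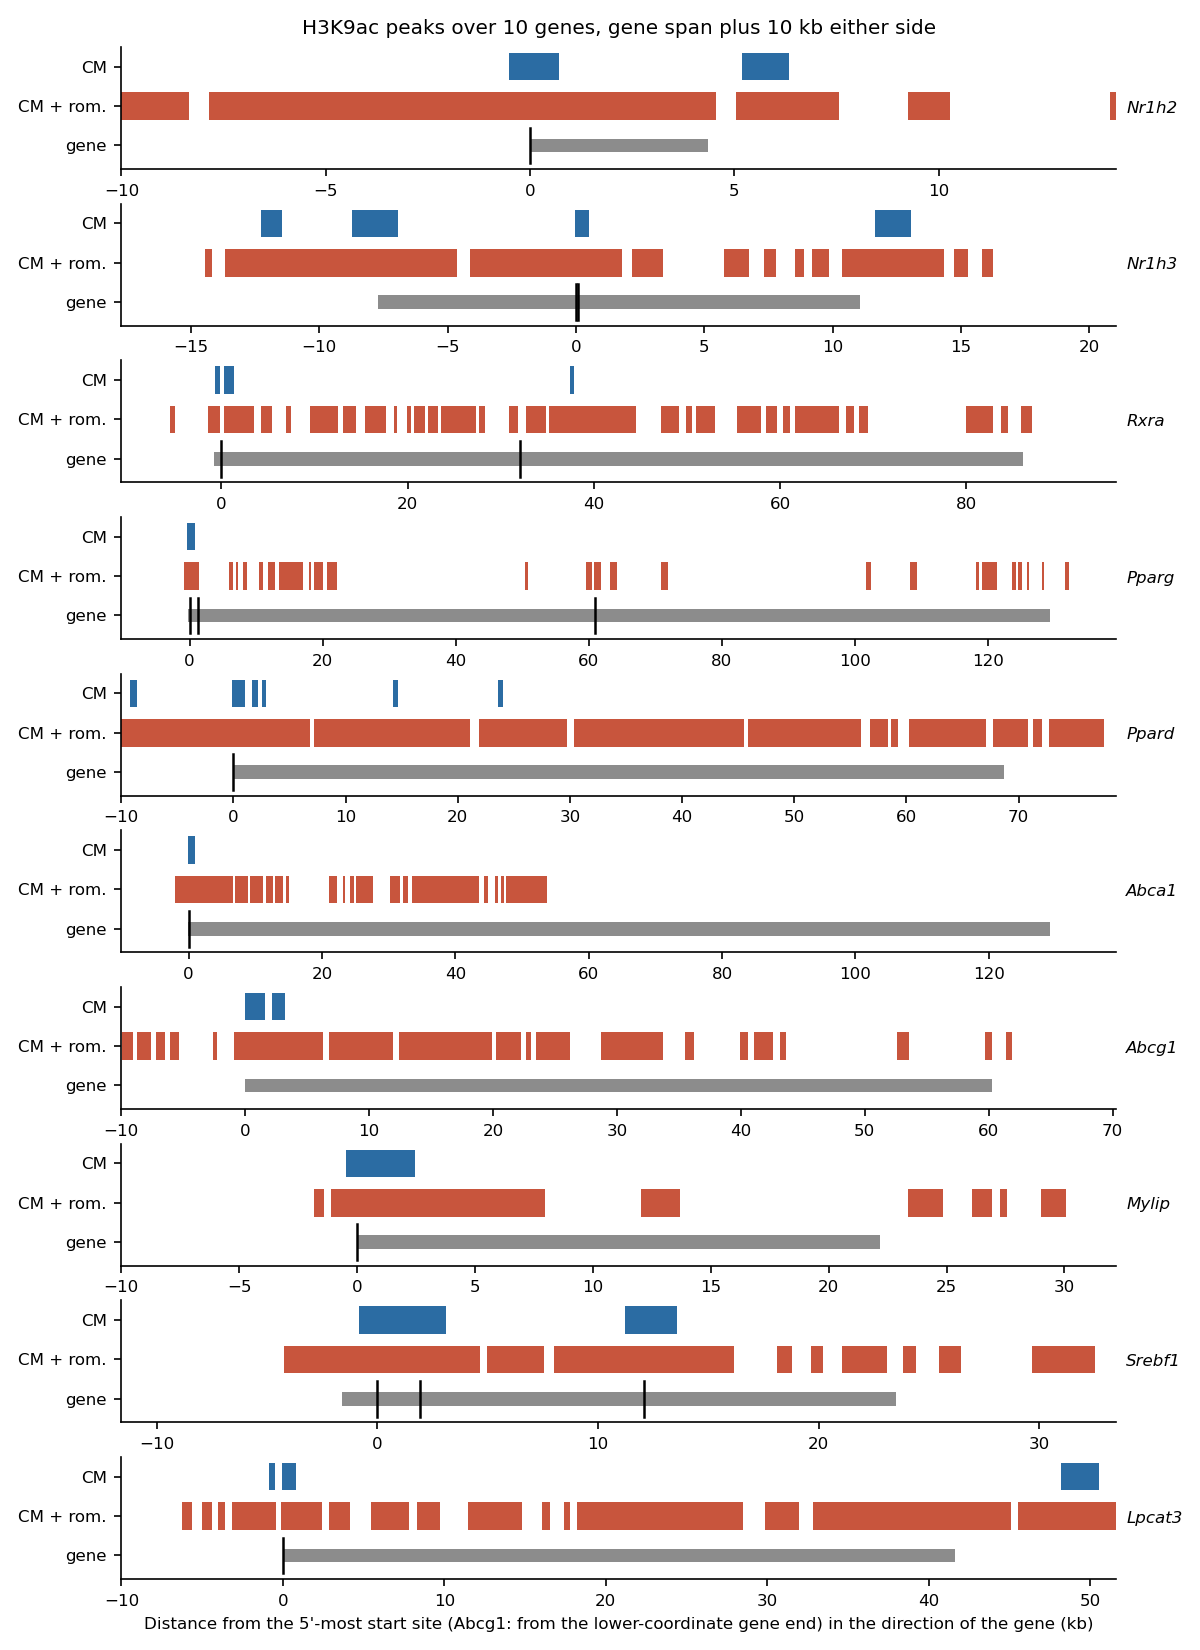
Peaks in CM (blue) and CM with romidepsin (red) over each gene (grey bar, black ticks at annotated starts), by distance from the first start in kb in the direction of the gene; for Abcg1 the distance is from the lower-coordinate end. Red bars leave few gaps in the Ppard row, stop 53.7 kb into Abca1 and are sparse along Pparg.

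Abca1 and Abcg1, which encode the transporters that pass cholesterol to apolipoprotein A-I and to high-density lipoprotein, had CM peaks at 1 end and romidepsin peaks along the gene. Abca1 had 1 CM peak, chr4:53158910-53159954 (1045 bp, fold 5.32, −log10 q 4.55), which reached only 59 bp upstream of the start. With romidepsin the start lay in chr4:53153245-53161922 (8678 bp, fold 3.45), and 16 more peaks overlapped no CM peak. The longest of them, chr4:53116358-53126336 (9979 bp, fold 3.60, −log10 q 5.30), began 33.6 kb downstream of the start and had a higher fold than the start peak. The most distant romidepsin peak ended 53.7 kb from the start, and the remaining 75.4 kb of the gene held none. Covered sequence was 1.05 kb in CM and 39.8 kb with romidepsin, a ratio of 38.1, the highest of the set and at percentile 98.9 of genes with CM coverage. The ratio rests on the single short CM peak, which covered 0.700% of the window. The share under romidepsin peaks was 26.7%, at percentile 65.8 of all protein-coding genes and below the median of the set. The 3 protein-coding genes closest to Abca1 in covered bases, by the distance of log10 (bases + 1) in both lists, were Cdh1 (1080 and 39517 bp), Ift122 (1082 and 41863 bp) and Slc39a14 (1064 and 42770 bp). Their windows were shorter, at 86898, 93321 and 67986 bp against 149200 bp for Abca1. The likeness is therefore in base counts and not in the share of the window covered, and it rests on 2 libraries.

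Abcg1 had 2 CM peaks at its lower-coordinate end, chr17:31057709-31059311 (1603 bp, fold 5.66) and chr17:31059828-31060900 (1073 bp, fold 3.60). A romidepsin peak, chr17:31056803-31063979 (7177 bp, fold 4.66, −log10 q 8.80), joined both. It was followed by chr17:31064418-31069621 (5204 bp, fold 3.26) and chr17:31070094-31077632 (7539 bp, fold 3.72), neither over a CM peak. Of the Abcg1 span 4.44% was covered in CM and 56.6% with romidepsin.

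Mylip, Srebf1 and Lpcat3, the remaining targets, had start peaks in CM with folds of 4.29 to 6.15. Mylip, which encodes a ubiquitin ligase that degrades lipoprotein receptors, had a CM peak of 2952 bp, chr13:45389262-45392213 (fold 6.12), which ran 2471 bp into the gene. The romidepsin peak, chr13:45388657-45397705 (9049 bp, fold 3.81), reached 7963 bp into the gene and 1085 bp upstream of the start, where the CM peak had reached 480 bp. A single further romidepsin peak of 1686 bp lay in the gene.

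Srebf1, which encodes the SREBP-1 regulators of fatty acid synthesis, had the largest CM coverage of the set, 13.9% of the window. Its CM peak chr11:60219482-60223411 (3930 bp, fold 4.96) covered the upstream pair of starts. A separate CM peak, chr11:60208991-60211351 (2361 bp, fold 4.29), covered the start at position 60210471, whose promoter holds the pair of elements printed above. With romidepsin these became peaks of 8862 bp (fold 4.41) and 8166 bp (fold 3.82), with a further peak of 2585 bp between them, and 80.8% of the gene was covered. The former peak, chr11:60217930-60226791, reached the end of the neighbour Tom1l2. The ratio of covered sequence was the smallest of the set, 4.34, at percentile 33.6 of genes with CM coverage.

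Lpcat3, which encodes an enzyme that puts polyunsaturated fatty acids into phospholipids, had a CM peak of 861 bp over its start, chr6:124663069-124663929 (fold 6.15), and a peak of 358 bp upstream (fold 4.84). A gap of 440 bp parted them in CM and of 332 bp with romidepsin, where the start peak was 2520 bp long (fold 3.93). With romidepsin 79.1% of the gene was covered, in part by chr6:124681329-124691621 (10293 bp, fold 3.40), which lay 18.2 kb downstream of the start and overlapped no CM peak. At the far end of the window, the CM peak chr6:124711304-124713632 (fold 6.61) covered the starts of the neighbours Emg1 and Phb2. The romidepsin peak there was 18159 bp long.

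Other genes of the pathway were read from lists of their roles. Of the receptor isotypes, 1 of 4 had a start peak in CM and 2 of 4 with romidepsin. Rxrb had both, with a peak of 3624 bp (fold 6.52) in CM and 12599 bp (fold 4.68) with romidepsin that also covered the starts of Slc39a7 and, with romidepsin, of H2-Ke6 and Ring1. Ppara, the receptor of liver fatty acid oxidation, had a start peak with romidepsin only (626 bp, fold 2.60), and the start of Rxrg and of the bile acid receptor gene Nr1h4 had none in either list. Of the coregulators, 6 of 7 with an annotated start had a start peak in both lists; the start of Ppargc1a, a coactivator of mitochondrial genes, had none. Tbl1xr1, a subunit gene of corepressor complexes, had 5351 bp under CM peaks and 75579 bp under romidepsin peaks in its window, and the coactivator gene Ncoa3 had 4419 and 68485 bp.

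Of the other liver X receptor targets with an annotated start, 5 of 9 had a start peak in CM and 8 of 9 with romidepsin. The 3 with romidepsin only were Abcg8, a sterol exporter of liver and gut (322 bp, fold 2.41), Apoc2, which encodes the activator of lipoprotein lipase (7858 bp, fold 3.74), and Mlxipl, which encodes the glucose-sensing factor ChREBP (2399 bp, fold 3.17). The start of Abcg5, the partner of Abcg8, had no peak in either list. Fasn had a start peak in both (2279 bp, fold 5.02, and 5698 bp, fold 4.53). Of the targets of peroxisome proliferator-activated receptors, 3 of 5 had a start peak in CM and 5 of 5 with romidepsin. The scavenger receptor gene Cd36 (1169 bp, fold 2.78) and Pdk4, a kinase that restrains pyruvate oxidation (650 bp, fold 2.43), had one with romidepsin only. Cpt1a, the carnitine transferase of fatty acid oxidation, had 4569 bp (fold 7.05) and 6564 bp (fold 4.99), and the lipid droplet gene Plin2 had 8062 bp (fold 5.67) and 14508 bp (fold 4.19).

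Genes of oxysterol supply and cholesterol handling had a start peak at 6 of 6 genes in both lists. The cholesterol ester hydrolase gene Nceh1 had 1862 bp (fold 6.75) in CM and 21620 bp (fold 3.60) with romidepsin, and Soat1, which esterifies cholesterol, had 2948 bp (fold 5.23) and 6106 bp (fold 4.07). In their windows Scarb1, a lipoprotein receptor gene, had 2097 and 50617 bp under peaks, and the lysosomal cholesterol exporter gene Npc1 had 2896 and 38103 bp. Of the receptors that the MYLIP ligase degrades, Lrp8 had a start peak in both lists (1928 bp, fold 5.16, and 9237 bp, fold 3.77), and Vldlr had no peak in its window in either.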

How the data were processed

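Per the submitters' processing notes, the tools were Bowtie2 2.4.4, MACS2 2.2.7.1 and deepTools 3.5.1, and the build was mm10. Settings, read filters and the role of the 2 input libraries, which were not analysed here, are not given in the sources used here. The authors deposited 1 list of broad peaks per immunoprecipitated library. Each deposited row gives the peak's fold enrichment (a ratio), its −log10 p-value, its −log10 q-value and a score, which was not used. The number of reads was not given, so the depth is unknown.

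Positions were written with a first base numbered 1. Gene spans (21883 protein-coding genes on assembled chromosomes) and promoters came from RefSeq tables of GRCm38.p6, the same assembly as mm10; the start site followed from the promoter entry, found for 17491 of these genes. A gene had a start peak where a peak overlapped 1 kb either side of any start by at least 1 bp. Covered bases were counted inside the gene span plus 10 kb. Interval counts were tested on simulated data; Python 3.11.15 and pandas 2.3.3 were used. The genes, lists and settings were chosen with earlier results of these data known; the limits of 5 kb, 40 kb and 50% coverage, the start in a gap and the ABCA1-type letters were added after the peaks had been seen. Alternatives were gene spans alone or 25 kb either side, stricter thresholds, a romidepsin list of the CM list's size, merged peaks and other start windows. All 10 genes were named; from each pathway list up to 4 were named, first those with a start peak with romidepsin only, then those with none, then by romidepsin coverage; some genes that this rule would name are not reported here. Fasn was named in addition for its promoter.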

Additional observations from a re-analysis of the deposited data

How the results depend on the processing

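The counts below describe 2 libraries without replicates, and the cause of each shift was not tested beyond the smaller number of peaks that a threshold leaves. The ratio of covered sequence, 12.3 as reported, was 13.8 over the gene spans alone, 11 with 25 kb either side, 11.1 at a −log10 q of at least 5 in both lists, 7.52 at a fold of at least 3, and 5.79 with the romidepsin list reduced to the size of the CM list; romidepsin coverage was the larger in each. At a −log10 q of at least 5, the CM peaks fell from 25 to 7 and the romidepsin peaks from 147 to 20, and a start peak was left at 4 of 9 genes in CM, against 6 of 9 in the romidepsin list. In that setting only 3 genes (Ppard, Abcg1 and Mylip) had at least 3-fold more covered sequence; 4 genes (Rxra, Pparg, Abca1 and Srebf1) had no CM coverage left to form a ratio, and Nr1h2, Nr1h3 and Lpcat3 kept CM coverage with a ratio under 3. The romidepsin peaks numbered 43 at a fold of at least 3, 27 in the reduced list, and 57 once peaks closer than 1 kb were merged. At a fold of at least 3 the CM peaks stayed at 25. Start windows of 500 bp and 2.5 kb gave 9 of 9 genes in both lists. Shares over all protein-coding genes were not computed in these alternative settings, so the counts have no background beside them. No paired analysis was possible because each condition had 1 immunoprecipitated library and no result comes from a test.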
